A study of Mus musculus with 25 samples.

Results

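GATA1 binding locations that also carried TAL1 and lay away from promoters were examined in mouse erythroid cells. A final GATA1 location was called distal and cooccupied when the midpoint of a final TAL1 location lay less than 40 bp away and when every start site of a protein-coding transcript in GENCODE vM1 (mm9) was more than 1 kb away. This held for 3442 of the 10290 final GATA1 locations (33.5%), which were thus selected on the measured positions of both factors. The 3442 locations used 3890 TAL1 locations. The sets they are compared with are 5780 distal GATA1 locations without TAL1 that close (GATA1-only) and 255 cooccupied locations within 1 kb of a start site (proximal cooccupied). GATA1-only locations can have a called TAL1 location 40 bp or more away. With a limit of 100 bp, 4574 distal locations would count as cooccupied, and 10.5% of the GATA1-only set had 2 or more TAL1 locations within 500 bp.

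The locations came from ChIP-exo, in which an exonuclease trims immunoprecipitated DNA up to the point of cross-linking. The authors put the potential resolution of paired peaks at a few base pairs. The GATA1 midpoints listed here spread more widely than that around the GATA1 motif, as their quartiles below show. The libraries were made with antibodies to GATA1 (sc265, 10 libraries) or TAL1 (sc12984, 15 libraries). G1E cells are a line of erythroid progenitors, strain 129, that lack Gata1, and G1E-ER4 cells are their derivative in which GATA1 returned as a fusion to the hormone-binding domain of the estrogen receptor. The induced groups were G1E-ER4 cells at 3 and 24 h of estradiol, with 3 libraries each for GATA1 and for TAL1, and the groups not induced were G1E-ER4 cells at 0 h, with 3 GATA1 and 5 TAL1 libraries, and G1E cells, with 1 GATA1 and 4 TAL1 libraries. All libraries thus share the loss of endogenous Gata1, and the GATA1 of G1E-ER4 cells was the fusion protein. By the labels the GATA1 lists include the G1E library, whereas the methods describe G1E-ER4 cells only. Each deposited list pools its libraries and time points into single positions with no score, tag count or replicate, so that no location could be assigned to a time point and the depth behind a location is unknown. Locations were treated as independent in every interval and test, and these cover the counting of locations, not the variation between libraries or cultures.

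GATA1 is a zinc finger factor that binds WGATAA, where W is A or T, and drives red cell maturation. TAL1 is a basic helix-loop-helix factor that pairs with E proteins such as Tcf3 on the E-box CANNTG, and it is joined to GATA1 through the bridging proteins LMO2 and LDB1. Distal elements bound by this complex include well-studied enhancers of globin, heme and progenitor genes.

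The sequences below show the arrangement on which most of the results turn, a TG ending 7 or 8 bp before WGATAA. Each is 51 bp of the mm9 reference, 5′ to 3′ along the strand that reads WGATAA, and the capitals mark the TG and the WGATAA. The reference is C57BL/6J, not the strain of the cells. For each gene list, the location shown is the one with the smallest distance between its GATA1 and TAL1 midpoints among those in or within 10 kb of a listed gene that have both elements, and ties went to the location nearer to a start site, as for Trfr2 over Steap3.
Ssbp2 (chr13:91597666-91597716, minus strand, outside genes): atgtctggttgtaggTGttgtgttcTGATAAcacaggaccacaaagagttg
Runx1 (chr16:92822665-92822715, plus strand, intron 2 of Runx1): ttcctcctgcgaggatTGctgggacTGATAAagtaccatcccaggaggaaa
Slc25a38 (chr9:120021668-120021718, plus strand, intron 1 of Slc25a38): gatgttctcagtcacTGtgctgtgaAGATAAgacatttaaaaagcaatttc
Trfr2 (chr5:138012117-138012167, plus strand, intron 2 of Trfr2): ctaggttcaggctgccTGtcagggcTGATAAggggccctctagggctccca
Hba-x (chr11:32169114-32169164, minus strand, outside genes): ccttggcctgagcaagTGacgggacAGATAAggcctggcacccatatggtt
Tmod1 (chr4:46053704-46053754, minus strand, intron 1 of Tmod1): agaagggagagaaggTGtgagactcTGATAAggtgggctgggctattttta
Jak2 (chr19:29324519-29324569, minus strand, outside genes): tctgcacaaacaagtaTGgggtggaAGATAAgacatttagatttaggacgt
Ccnd3 (chr17:47735209-47735259, minus strand, intron 6 of Ccnd3): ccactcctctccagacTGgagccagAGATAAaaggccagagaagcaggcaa
Ryr1 (chr7:29815078-29815128, plus strand, intron 89 of Ryr1): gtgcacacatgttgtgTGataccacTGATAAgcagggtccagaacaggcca
In these 9 sequences the TG is preceded by different bases, and only the one upstream of Hba-x, the embryonic alpha-like globin gene, completes an E-box (CAAGTG).

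Of the locations with a complete CANNTG at that distance, 3 further ones, in Gata2, Samd14 and Runx1, were picked out after their values were seen. The capitals again mark the TG and the WGATAA.
Gata2 E-box (chr6:88153168-88153218, plus strand, intron 4 of Gata2): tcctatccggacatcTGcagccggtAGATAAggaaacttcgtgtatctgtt
Samd14 E-box (chr11:94873629-94873679, plus strand, intron 1 of Samd14): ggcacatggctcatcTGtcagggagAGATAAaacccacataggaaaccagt
Runx1 E-box (chr16:92716106-92716156, minus strand, intron 2 of Runx1): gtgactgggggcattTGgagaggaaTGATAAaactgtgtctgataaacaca
The E-box was CATCTG in the introns of Gata2 and Samd14, both with 8 bp to AGATAA. It was CATTTG in the intron of Runx1, with 8 bp to TGATAA.

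The last pair of sequences are the locations without a WGATAA site closest to the start of a listed gene, given on the plus strand and centered on the GATA1 midpoint. The capitals mark CANNTG and GATA, read on either strand.
Alas2 without site (chrX:146984248-146984298, plus strand, intron 6 of Apex2): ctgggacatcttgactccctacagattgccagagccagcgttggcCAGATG
Epb4.1 without site (chr4:131633534-131633584, plus strand, outside genes): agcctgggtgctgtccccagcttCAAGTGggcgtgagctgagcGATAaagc
Both hold an E-box, and the one upstream of Epb4.1 also holds GATA.

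WGATAA was present at most distal cooccupied locations. A weight matrix learned from these data (consensus CAGATAAG, threshold p = 0.001) found a site within 40 bp of 2905 of 3442 distal cooccupied locations, or 84.4% (95% exact binomial interval, 83.1 to 85.6%), against 4690 of 5780 GATA1-only locations, or 81.1%. The odds ratio was 1.26 (95% interval, 1.12 to 1.41; Fisher's exact test, adjusted p = 0.000113). The p-values of this and of the following shares are from two-sided Fisher's exact tests, adjusted by the Benjamini-Hochberg method over the 5 sequence features compared. In windows moved by 1 kb, 15.3% and 15.03% had a site. Within 20 bp of the location the shares were 57.8% and 57.9%, an odds ratio of 0.996, so the difference rested on sites 20 to 40 bp away. Proximal cooccupied locations had a site in 82.4% (odds ratio for distal over proximal, 1.16; 95% interval, 0.829 to 1.62; Fisher's exact test, adjusted p = 0.567).

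By the exact string WGATAA the shares of locations with a site were 71.5% and 64.9% (odds ratio 1.36), and at the stricter matrix threshold of p = 0.0001 they were 36.4% and 29.8% (odds ratio 1.35). AGATAA made up 57.9% of the sites at distal cooccupied locations and 53.7% at GATA1-only locations, and TGATAA made up 25.2% and 24.2%. AGATAG made up 9.74% and 12.7%. The base after the site was G at 54.9% of distal cooccupied sites and 53.1% of GATA1-only sites (odds ratio 1.08; 95% interval, 0.983 to 1.18; Fisher's exact test, adjusted p = 0.113). A further WGATAA lay within the same window at 35.2% of distal cooccupied sites and 38.5% of GATA1-only sites (odds ratio 0.867; Fisher's exact test, adjusted p = 0.00458). That difference was gone with the exact string in place of the matrix (odds ratio 0.986) and turned at the stricter threshold (odds ratio 1.12). Runs of 3 or more further sites were seen at 7 distal cooccupied locations (0.241%) and 109 GATA1-only locations (2.32%).

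TG 7 or 8 bp upstream of WGATAA gave the widest difference in share among the 5 features compared. The authors had already reported this TG at cooccupied sites from the same data, so its rank and p-value here are no independent support. It was found at 1271 of 2905 sites, or 43.8% (41.9 to 45.6%), against 896 of 4690 GATA1-only sites, or 19.1% (17.99 to 20.26%). The odds ratio was 3.29 (2.97 to 3.65; Fisher's exact test, adjusted p = 1.89e-115). At the sites found in moved windows the shares were 16.1% and 16.5%.

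The distance was narrow. TG lay exactly 8 bp upstream at 765 distal cooccupied sites (26.3%) and exactly 7 bp upstream at 506 (17.4%), whereas the GATA1-only shares were 9.83% and 9.28%. One base closer or farther, at 6 and 9 bp, the distal cooccupied shares were 9.74% and 10.9%, and at 10 bp the share was 8.02%. Over the other distances up to 30 bp it averaged 8.29% (7.19 to 10.7%) at distal cooccupied sites and 7.80% at GATA1-only sites. GC content also differed, with a median of 48.1% in the 81 bp windows of distal cooccupied locations and 45.7% in those of GATA1-only locations (two-sided Mann-Whitney test, n = 3442 and n = 5780, adjusted p = 1.07e-69), and its part in the TG result was not tested beyond these other distances.

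**Figure D1:**
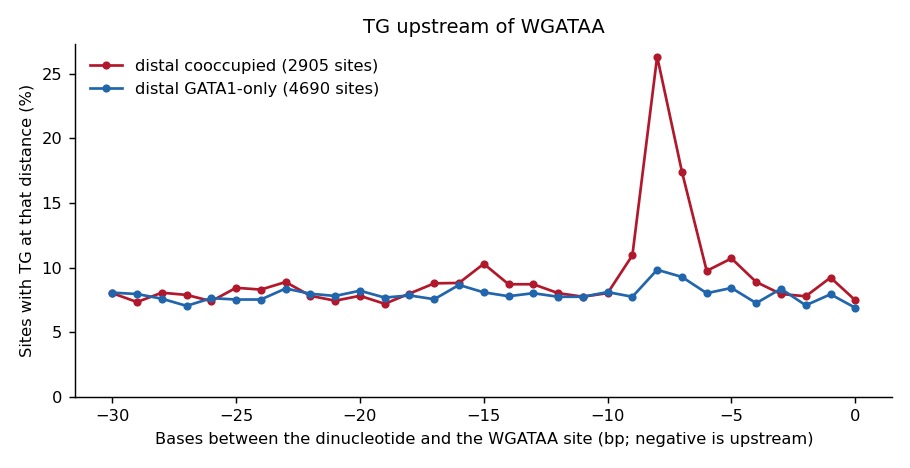
Share of WGATAA sites (y axis, %) with TG at each number of bases upstream (x axis, bp) at distal cooccupied (red) and GATA1-only (blue) locations. The red line stands at 26.3% and 17.4% at 8 and 7 bp and averages 8.29% at the distances outside 6 to 10 bp, while the blue line reaches 9.83% and 9.28%.

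The TG share was higher at distal cooccupied than at GATA1-only sites on 20 of 20 chromosomes, by 3.51 to 36.0 percentage points. The smallest difference was on chromosome X, which had 46 distal cooccupied locations of 119 GATA1 locations and TG shares of 36.8% and 33.3%. Proximal cooccupied sites had TG at that distance in 48.1% of 210 cases, and the odds ratio of distal over proximal was 0.840 (0.634 to 1.11; Fisher's exact test, adjusted p = 0.555). The odds ratio of cooccupied over GATA1-only sites was 3.29 among distal and 4.07 among proximal locations, and these did not differ beyond counting error (Breslow-Day test, n = 2905, n = 4690, n = 210 and n = 582 sites, p = 0.247).

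**Figure D2:**
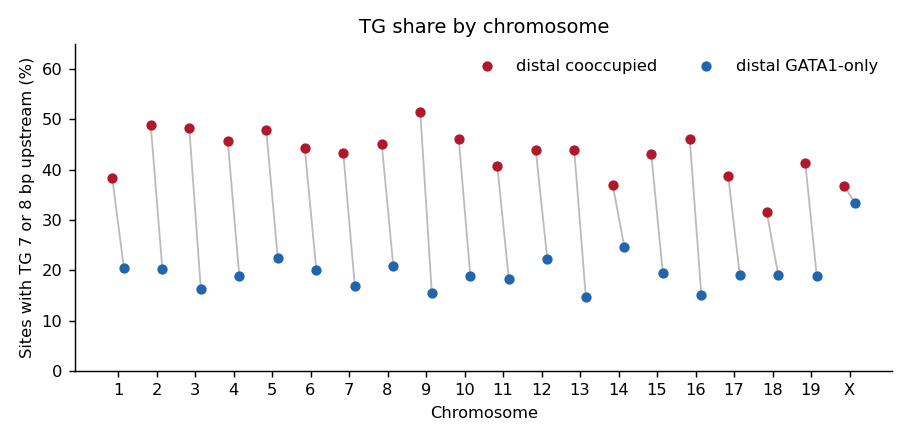
Share of WGATAA sites with TG 7 or 8 bp upstream (y axis, %) on each chromosome (x axis), for distal cooccupied (red) and GATA1-only (blue) locations, a gray line joining the 2 values of a chromosome. Red lies above blue on all 20 chromosomes, least on X, at 36.8% and 33.3%.

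Most of these TG were not part of a complete E-box. CANNTG ended at 7 or 8 bp in 182 of 2905 distal cooccupied sites (6.27%) and 76 of 4690 GATA1-only sites (1.62%), with an odds ratio of 4.06 (3.09 to 5.33; Fisher's exact test, adjusted p = 5.16e-26). Proximal cooccupied sites had it in 12 of 210 cases, or 5.71% (odds ratio of distal over proximal, 1.10; 0.604 to 2.01; Fisher's exact test, adjusted p = 0.883). The CA was thus present beside 14.3% of the TG at distal cooccupied sites and 8.48% at GATA1-only sites. In moved windows these shares were close to that, at 14.1% (12 of 85) and 7.69% (11 of 143), on small counts. Among the complete E-boxes, CAGCTG was the most frequent with 48 sites, followed by CATCTG with 38 and CAGATG with 22. The base just before TG was C at 56.6% of the 1271 distal cooccupied sites, against 30.8% of the 896 GATA1-only sites. For TG at the other distances C preceded it at 38.6% and 34.2%, so the preference for CTG was seen at 7 and 8 bp in the cooccupied set and not at the other distances to that degree. It was found in this way after the data had been seen and has no test.

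Along the WGATAA strand, TAL1 tended to lie upstream of GATA1. Its midpoint was upstream at 1614 of the 2852 sites where the positions differed, or 56.6% (54.8 to 58.4%; two-sided exact binomial test against equal shares, p = 2.04e-12), with 53 further sites at the same base. The share was over 50% on 18 of 20 chromosomes and ranged between 48.3 and 63.3%. Counting from the third base of WGATAA, the TAL1 midpoint had a median of −12 bp (quartiles −24 and 11) and the GATA1 midpoint −5 bp (−18 and 9). TAL1 midpoints were most frequent between −30 and −11 bp, which held 36.2% of them, and 21 bp or more downstream of the site lay 16.8%.

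The position of TAL1 differed with the TG. With TG at 7 or 8 bp the median TAL1 midpoint was −14 bp, and without it −9 bp (two-sided Mann-Whitney test, n = 1271 and n = 1634, p = 3.33e-05). The difference was small, with a probability of 0.455 that a TAL1 midpoint with TG lay farther downstream than one without (0.5 is no difference). GATA1 midpoints, under 40 bp from TAL1 by selection, had medians of −6 bp with TG and −4.5 bp without. TAL1 was upstream of GATA1 at 60.9% of sites with TG (58.1 to 63.6%) and 53.3% of sites without (50.8 to 55.8%). At the 182 sites with a complete E-box the median was −17 bp (quartiles −23 and −5.25), and TAL1 lay upstream of GATA1 in 64.4%. The range was wide also with TG, since 12.4% of TAL1 midpoints lay 21 bp or more downstream there, against 20.1% without TG. The Gata2 intron is one such case, with its E-box upstream and its TAL1 midpoint 21 bp downstream of the third base of WGATAA, whereas at Samd14 the TAL1 midpoint lay at −20 bp.

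**Figure D3:**
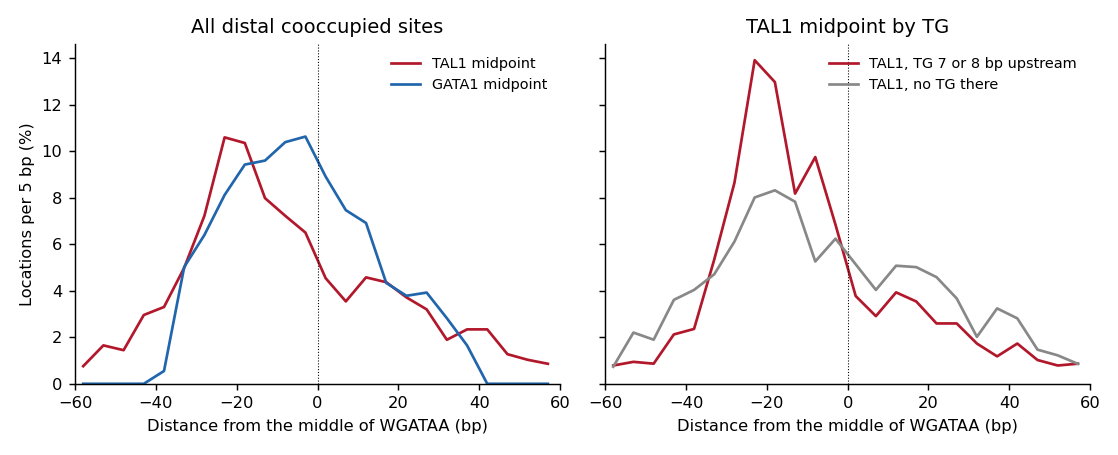
Midpoints per 5 bp (y axis, % of sites) by distance from the third base of WGATAA (x axis, bp; negative is upstream) at distal cooccupied locations. Left, TAL1 (red) with a median of −12 bp and GATA1 (blue) with a median of −5 bp over 2905 sites; right, TAL1 at sites with TG 7 or 8 bp upstream (red, median −14 bp) and without (gray, median −9 bp).

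The distance between the GATA1 and TAL1 midpoints, on which the locations were chosen, had a median of 15 bp (quartiles 7 and 25). It was under 10 bp at 32.3% of the locations, 10 to 19 bp at 28.8%, 20 to 29 bp at 23.5% and 30 to 39 bp at 15.4%. The midpoints fell on the same base at 64 locations. Just inside the limit 42 and 55 locations had distances of 38 and 39 bp, and just outside it 36 and 35 distal locations had their closest TAL1 at 40 and 41 bp. The locations closest to the other limit lay 1013, 1016 and 1020 bp from a start site, and the nearest ones left out lay at 1000, 988 and 984 bp.

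**Figure D4:**
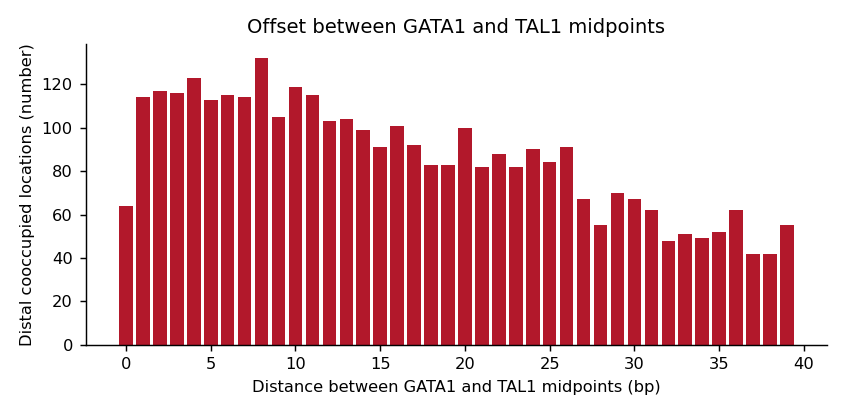
Number of distal cooccupied locations (y axis) by distance between the GATA1 and TAL1 midpoints (x axis, bp). The counts lie between 105 and 132 at 1 to 10 bp and between 42 and 55 at 37 to 39 bp, where the selection ends, and 64 locations have both midpoints on 1 base.

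More GATA1 cross-linking points were listed around distal cooccupied than around GATA1-only locations. The peak pairs of GATA1 within 100 bp averaged 2.66 and 1.84 (two-sided Mann-Whitney test, n = 3442 and n = 5780, adjusted p = 6.15e-194 over 5 measures of place and density), and 76.4% and 51.1% had at least 2. Proximal cooccupied locations were like the distal ones, with a mean of 2.72 and 75.3% with at least 2. Whether the higher number of peak pairs goes with higher GATA1 occupancy was not tested, because the lists hold no tag counts. TAL1 had a median of 3 peak pairs within 100 bp of the distal cooccupied locations, and 57.9% of them had 2 or more final TAL1 locations within 500 bp, up to 17 at 1 location, whose closest start site was that of Cbfa2t3. By the rule each has at least 1. Among proximal cooccupied locations 63.5% had 2 or more, and the share over all TAL1 locations was not computed here. A neighboring GATA1 location under 500 bp away, forming a homotypic cluster, was present for 15.5% of distal cooccupied and 12.8% of GATA1-only locations (odds ratio 1.25; 1.11 to 1.41; Fisher's exact test, adjusted p = 0.000373).

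Beside WGATAA and TG, 8 short strings were counted within 40 bp on both strands, adjusting over the 8. CANNTG anywhere in the window was present at 45.6% of distal cooccupied and 34.9% of GATA1-only locations (odds ratio 1.56; 1.43 to 1.70; Fisher's exact test, adjusted p = 4.16e-23), with 34.6% and 33.6% in moved windows. TGTGGT, a core bound by RUNX factors, was present at 12.2% and 9.98% (odds ratio 1.25; Fisher's exact test, adjusted p = 0.00394), with 6.62% and 6.37% in moved windows. CCAAT, the core of NF-Y sites, was less frequent at distal cooccupied than at GATA1-only locations, with 7.55% and 9.45% (odds ratio 0.783; Fisher's exact test, adjusted p = 0.00472), and 10.2% of the windows moved from either set held it. The ETS core GGAAG (26.4% and 25.4%, adjusted p = 0.344), the KLF-type string CCNCNCCC (7.12% and 8.18%, adjusted p = 0.141), the AP-1 string TGANTCA (2.70% and 3.32%, adjusted p = 0.169), GGGCGG (1.66% and 1.99%, adjusted p = 0.344) and AATAGT (1.83% and 2.04%, adjusted p = 0.535) did not pass Fisher's exact test. CANNTG includes the E-boxes at 7 and 8 bp described above. AATAGT is a scrambled string included for comparison, and 3.52% and 3.36% of the moved windows held it.

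No WGATAA site was found at 537 distal cooccupied locations. Of these 65.5% held the letters GATA (61.4 to 69.6%) and 51.02% held CANNTG (46.7 to 55.3%), against 31.8% and 33.5% of their moved windows. TGTGGT was present in 14.7% (11.82 to 17.99%) and in 6.70% of the moved windows. At the 1090 GATA1-only locations without a site, CANNTG was present in 37.3% (34.5 to 40.3%) and in 36.2% of their moved windows. GATA was present there in 61.1% (58.1 to 64.0%) and TGTGGT in 11.3% (9.47 to 13.3%), against 34.7% and 6.88% of their moved windows. The location 2271 bp from a start of Alas2 and the one 2352 bp upstream of Epb4.1, printed above, belong to the 537 distal cooccupied ones.

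Introns held 1867 distal cooccupied locations (54.2%) and exons held 131 (3.81%), while 1444 (42.0%) were intergenic with regard to protein-coding genes. At GATA1-only locations the shares were 57.4% in introns, 3.41% in exons and 39.2% outside genes (odds ratio for introns 0.879; 0.807 to 0.957; Fisher's exact test, adjusted p = 0.00295). First introns held 38.5% (36.3 to 40.8%) of the intronic distal cooccupied locations and 44.3% (42.6 to 46.0%) of the intronic GATA1-only locations, numbering introns in the longest transcript. WGATAA read along the strand of the host gene at 48.8% of intronic distal cooccupied sites (46.3 to 51.3%), so neither strand was preferred beyond counting error. The gene model Gm20388 held 30 of the distal cooccupied and 42 of the GATA1-only locations. Both sets lie more than 1 kb from start sites by selection, and within that limit the median distance was 17983 bp for distal cooccupied and 15849.5 bp for GATA1-only locations (two-sided Mann-Whitney test, n = 3442 and n = 5780, adjusted p = 3.73e-05). Of the distal cooccupied locations 19.1% lay 1 to 5 kb from the closest start site, 14.9% lay 5 to 10 kb away, 43.5% lay 10 to 50 kb away, 12.7% lay 50 to 100 kb away and 9.73% lay farther. Over 5 kb from start sites neither difference passed the test, with an odds ratio of 0.931 for introns and a probability of 0.507 that a distal cooccupied location lay farther away than a GATA1-only one.

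The locations were spread over the genome with some dense stretches. The median distance to the next distal cooccupied location was 39295.5 bp, and 308 locations (8.95%) had another within 500 bp. Among neighbors at most 500 bp apart, 10 gaps were at most 40 bp, 19 were over 40 and up to 100 bp, 73 were over 100 and up to 200 bp, and 62 were wider. Such stretches held 2 locations in 128 cases, 3 in 12 cases and 4 in 4 cases.

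The 4 stretches with the most locations had different surroundings. In the first intron of Tmem131, a transmembrane protein gene, 4 locations spanned 636 bp (chr1:36976699-36977335), all with WGATAA, 2 with TG, and with up to 15 TAL1 locations within 500 bp. A second stretch of 4 spanned 259 bp outside genes, at least 35993 bp from a start of Nab1, a corepressor of EGR factors, and 3 of its locations had a site but none had TG. In the second intron of Sema4b, a semaphorin gene, 4 spanned 971 bp (chr7:87353170-87354141), of which 3 had a site and 1 had TG. The last stretch spanned 276 bp outside genes, 16338 bp or more from Sema5b, another semaphorin gene, with 4 sites and 1 TG. Neighboring locations such as these can share a WGATAA site.

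The closest start site belonged to 2262 different genes, 1569 of them with 1 location. Runx1, which encodes a factor needed for blood stem cell formation, had the most with 13, followed by Sgms1, a sphingomyelin synthase, with 10. Daf2, a complement regulator, and Ikzf2, the Ikaros family factor Helios, had 9 each. Klf13, a Krüppel-like factor, Nova1, a neuronal RNA-binding protein, and Pip4k2a, a phosphoinositide kinase, had 8 each. The genes with 7 were Cbfa2t3, Dapp1, a phosphoinositide-binding adaptor, Kif20b, a mitotic kinesin, Myc, Phlda1, Tmem131 and Tnp1, a chromatin protein of spermatids. Distance along the chromosome is the sole link between a location and these genes. At Nova1 the closest location was 108441 bp from the start site, although 2 of the 8 lay in the gene body or within 10 kb of it. Daf2, Kif20b, Myc and Tnp1 had no location that near.

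At Runx1, 7 of the 13 locations lay in the second intron and 6 lay outside genes, up to 371450 bp from the start. Of these, 11 had WGATAA and 4 had TG at 7 or 8 bp. The intronic locations 18464 and 18591 bp from a start were 127 bp apart, and the second of these carries the complete E-box printed above. At Cbfa2t3, the gene of ETO2, a corepressor in TAL1 complexes, the 7 closest locations lay 1839 to 21440 bp from a start site, and all had WGATAA, 5 of them with TG. The annotation places all 7 in an intron of Gm20388, a gene model of 4434.9 kb that spans Cbfa2t3 and its surroundings. At Myc, the cell growth regulator, the 7 locations lay outside genes, 112091 to 235908 bp away, 6 with WGATAA and none with TG at that distance.

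Counting genes by their body and 10 kb on either side, 2170 of 22208 protein-coding genes had a distal cooccupied location (9.77%), and 907 locations (26.4%) were in reach of no gene. Of 92 genes in 8 lists of blood genes, 54 had one (58.7%), and of 36 neuron, liver and muscle genes 2 had one (5.56%). Distal GATA1-only locations were in reach of 55.4% of the same blood genes, 2.78% of the comparison genes and 15.4% of all genes. By list, the cooccupied and GATA1-only shares were equal for progenitor regulators (61.5%), iron and heme transport (50%), membrane and skeleton (73.3%) and survival genes (61.5%). They were 61.5% and 53.85% for the TAL1-GATA1 complex, 70% and 40% for heme synthesis and 57.1% and 42.9% for globins. For erythropoietin and kit signalling they were 27.3% and 45.45%. The blood genes had a median length of 23.6 kb, the comparison genes 17.7 kb and all genes 15.5 kb, and the part of gene length in these shares was not tested. The lists were chosen with earlier results of these data known, so their shares are a description only.

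**Figure D5:**
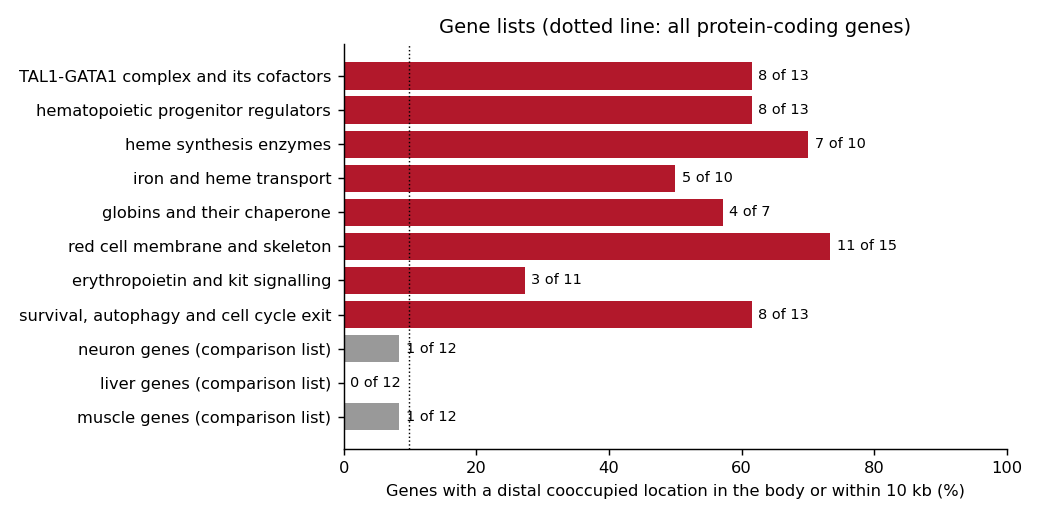
Share of the genes of each list (y axis) with a distal cooccupied location in the body or within 10 kb (x axis, %), red for blood lists and gray for comparison lists, with the number of genes at each bar. The dotted line marks the 9.77% of all protein-coding genes, and the 8 blood lists lie between 27.3% and 73.3%, the comparison lists between 0 and 8.33%. The lists were chosen with earlier results of these data known.

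Among 13 genes of the TAL1-GATA1 complex and its cofactors, 8 had a distal cooccupied location. Zfpm1, which encodes the GATA1 cofactor FOG1, had 8, all in the gene body and all with WGATAA, 3 of them with TG, and 10 GATA1-only locations were also in its reach. Cbfa2t3 had 5 in reach and no distal GATA1-only location, and these 5 are not a subset of the 7 closest to its start sites, some of which lay more than 10 kb from the gene. Ssbp3, a partner of LDB1, had 3 beside 4 GATA1-only locations, and Tcf12, an E protein, had 3 beside 2. Gata1 itself and Ldb1 had 1 each, both with WGATAA and without TG. Klf1 and Lmo2 had neither kind of distal location in reach. Beyond that reach, a start of Lmo2 was the closest to distal cooccupied locations 64048 and 69749 bp away, both with TG 7 bp before their site.

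The same number, 8 of 13, held for the progenitor regulators. Runx1 had 7 in reach beside 5 distal GATA1-only locations. Erg had 3 beside 5, Gata2 had 3 beside 2 and Kit had 3 beside 4. All 3 locations at Gata2, which encodes the GATA factor that precedes GATA1, had AGATAA with TG 8 bp upstream. They lay 3109 and 2007 bp from a start outside the gene and 4533 bp from a start in the intron. The 3 at Kit, the receptor of stem cell factor, were all intronic, and 2 had WGATAA but none had TG. Myc, Myb and Sfpi1, which encodes PU.1, had none in reach.

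Heme and iron genes followed. Of 10 heme synthesis genes 7 had a location, including Alad with 3 and Alas2, Abcb10, Cpox and Fech with 2 each. The 3 at Alad, the second enzyme of the pathway, all lay in its first intron, and 2 of them 178 bp apart. Both at Alas2, the erythroid form of the first enzyme, lay inside its gene body, 125 bp apart, 1 with WGATAA and neither with TG. They are listed under an intron of the overlapping gene Apex2 because the longest transcript decided. Ppox and Urod had none. Of 10 iron and heme transport genes 5 had a location. Fth1, the ferritin heavy chain, and Steap3, a ferrireductase, had 2 each, and Tfrc, the transferrin receptor, Trfr2, its paralog, and Slc11a2, an iron carrier, had 1 each.

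Of 7 globin genes 4 had a location. Hbb-b2 and Hbb-y had 2 each and Hbb-b1 and Hba-x had 1 each, none inside a gene. The pair nearest Hbb-y, the embryonic beta-like gene, lay 6022 and 7804 bp from its start, and the first had AGATAA with TG 7 bp upstream. Hba-a1 and Hba-a2, the adult alpha-globin genes, had none in reach. Among 15 genes of the red cell membrane and skeleton 11 had a location. Spnb1, which encodes beta-spectrin, had the most with 6, and Gypc, glycophorin C, had 4. In Spnb1, 3 of the locations lay within 51 bp in the first intron.

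In erythropoietin and kit signalling 3 of 11 genes had a location, namely Jak2, Stat5a and Stat5b with 1 each, and Epor, the erythropoietin receptor, had none. Of 13 genes of survival, autophagy and cell cycle exit 8 had one. Bcl2l1, which encodes the survival factor Bcl-xL, and Foxo3, a forkhead factor, had 5 each, all intronic, and Ccnd3, a cyclin that acts in the last divisions of erythroblasts, had 4. Of the comparison genes Gad2 and Ryr1 had 1 each, and the one in Ryr1 has TG 7 bp before TGATAA. None of the 12 liver genes had one.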

How the data were processed

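The series holds 25 ChIP-exo libraries, 10 of GATA1 and 15 of TAL1. Reads were called with CASAVA 1.7 and bcl2fastq 2.15 and aligned to mm9 with Bowtie 1.00 or BWA 0.6.2 and 0.7.9a, per the submitters' processing notes. The authors merged replicate libraries, called peak pairs and took their union over the time points, and called MultiGPS events across conditions. Both kinds were at least 2-fold over input at q under 0.05. Deposited per factor were the peak pairs, the MultiGPS events and the final locations, which are MultiGPS events within 100 bp of a peak pair. The GATA1 and TAL1 calls at a cooccupied location can therefore come from different time points. The deposited values are single base positions (another kind of value than counts or scores) with no score or depth. The deposited final lists hold 10290 GATA1 and 15209 TAL1 positions.

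Members and gene lists were chosen with earlier results of these data known. The matrix for WGATAA, of 8 positions, came from expectation maximization (30 iterations, pseudocount 1) from 81 bp windows at 500 GATA1 locations drawn with seed 1. The best site within 40 bp was used, and windows moved by 1 kb gave the background. Of the 129 listed genes 128 were in GENCODE vM1, some under an older symbol, and Ahsp was not. Shares were compared by Fisher's exact test and distances by the Mann-Whitney test, both two-sided, with p adjusted by the Benjamini-Hochberg method within each family. The odds ratio of TG was compared between distal and proximal locations by the Breslow-Day test. Intervals are at 95% and cover counting error only. Genes named are the 10 closest to the most locations with ties, up to 3 per list with the most locations in reach (and others of the lists by their counts), and the stretches with the most locations, where 4 were tied. Of the sequences, 3 with a complete E-box were added later. Some listed genes are not reported here by name. The functions were tested on simulated data. Alternatives changed the limits of cooccupancy and distance, the site definition, the window, the learning set, the lists, the gene reach and neighboring locations. The comparison of repeats was not run, since the reference genome used here carries no masking. Tag profiles, expression and time classes were not analysed here. Computations used Python 3.11.15, numpy 2.4.6, scipy 1.17.1, statsmodels 0.14.6 and matplotlib 3.10.9.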

Additional observations from a re-analysis of the deposited data

How the results depend on the processing

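Of 99 alternatives, 80 kept their direction and their side of the threshold or, for counts, lay within 1.5 times. The odds ratios of TG and of the full E-box over GATA1-only locations passed the test under each alternative run. WGATAA over GATA1-only turned within 20 bp (odds ratio 0.996). A second WGATAA turned at the matrix threshold of 0.0001 (1.119) and lost the call with the exact string (0.986) and with midpoints under 20 bp apart (0.923). G after WGATAA gained the call with the exact string (1.16), with midpoints under 20 bp apart (1.126) and within 20 bp (1.174). TG over proximal cooccupied locations turned within 20 bp (1.022). Over 5 kb from start sites, the call was lost for introns (0.931) and for distance (0.507). Leaving out the locations in the gene model Gm20388, chosen after seeing the data, gave 0.876 for introns, with the call kept. The number of distal cooccupied locations was 2103 with midpoints under 20 bp apart. Genes with one numbered 1389 in the gene body and 4759 within 50 kb. Within 100 bp, 5 of 8 strings passed the test, against 3 within 40 bp. The added strings were GGAAG (1.105) and AATAGT (0.798). AATAGT is the scrambled comparison string, so a string chosen as a control also passed there. Strings that turned, none of them called, were CCNCNCCC (1.051) and GGGCGG (1.031) within 100 bp and GGAAG (0.929) within 20 bp. The cause of these changes was not tested.

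No paired analysis was possible because each list pools its libraries and holds no replicate, and for the same reason libraries were not left out in turn. The comparison of repeats, with its alternatives, was not run. The lists hold no tag counts, so weak and strong locations count alike, and a location cannot be placed before or after estradiol. Locations with TAL1 below the calling threshold, or called 40 bp or more away, count as GATA1-only. Matches were read from the C57BL/6J reference, and a string match is no measured contact.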
